A study of Mus musculus with 26 samples.

Results

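The genes described here are the p53 gene, Trp53, and 9 of its direct targets: Cdkn1a, Mdm2, Ccng1, Bbc3, Pmaip1, Bax, Phlda3, Sesn2 and Zmat3. They were taken by name from 54589 genes in 3 deposited tables, and all 10 members were present and passed the filter on low values in each table. The rule that names them uses no measured value, but the set was proposed with earlier results of these data known. The question put to them was whether loss of Tex10 came with a change of the p53 pathway.

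The p53 protein is a transcription factor that is made continuously and broken down continuously, because MDM2, itself the product of a p53 target gene, marks it for destruction. When ribosome assembly is disturbed, free ribosomal proteins such as RPL5 and RPL11 bind MDM2, p53 accumulates as a protein, and its targets are transcribed. TEX10 is a subunit of the rixosome, a complex of PELP1, WDR18, SENP3, LAS1L and NOL9 that acts in the maturation of the large ribosomal subunit. RNA levels show the targets of p53 but neither the p53 protein nor the TEX10 protein.

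RNA was sequenced in 26 libraries from 3 experiments.
In the dTAG13 experiment, 129Sv/J epiblast-like cells (EpiLCs) were left untreated, and the germ cell precursors derived from them in vitro, called PGCLCs, were taken at day 2 and day 4 with either the solvent DMSO or 500 nM dTAG13, a small molecule that brings a tagged protein to the ubiquitin ligase cereblon. There were 2 libraries in each of these 5 groups.
In the overexpression experiment, untreated 129Sv/J cells of 1 empty-vector line and 2 Tex10 overexpression clones were sampled in the EpiLC state and on days 2, 4 and 6, with 1 library per line and stage.
In the testis experiment, cells of untreated C57BL/6N testis came from 2 Tex10 conditional knockout (cKO) and 2 wildtype samples. The tag, the promoter driving the Cre recombinase, the construct of the clones and the age of the mice are not given in the sources used here. No group of cells without the tag was analysed with dTAG13, so an effect of the compound and an effect of Tex10 loss cannot be told apart. Nothing in the labels says whether libraries of 1 group came from separate cultures or mice, so p-values measure the spread between libraries, which may be technical.

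Library totals lay between 5055362 and 8564563 reads, and the dTAG13 libraries were shallower than the DMSO libraries (5055362 to 5854980 against 6119730 to 8293878 reads). Values are TMM-scaled CPM, that is, reads divided by a library size that the authors scaled, in which 1 read was worth between 0.0996 and 0.187 units. As a check of the labels, Tex10 RNA was at 79.1 and 44.1 in wildtype testis against 29.8 and 27.3 in cKO testis, and it was higher in both clones than in the empty-vector line at each stage. Under dTAG13, which acts on the protein, Tex10 RNA had a log2 fold change of -0.14 at day 2 (limma with Benjamini-Hochberg adjustment, adjusted p = 0.322) and fell by 0.51 at day 4 (adjusted p = 0.000576). Calls below are at an adjusted p under 0.05 from the same test over all genes of the comparison, and log2 fold changes were computed from log2(value + 1), which understates changes of low genes.

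The p53 response element is built of 2 adjacent half-sites of 10 bases. It was searched for in the bases before annotated transcription start sites (RefSeq, GRCm38.p6), because a p53 target is read through such elements. A match was the element by its consensus, with no spacer, the core C at position 4 and the core G at position 7 of both half-sites kept, and at most 3 mismatches in 20 bases. The consensus reads the same on both strands, and no other motif was searched, so none overlaps it. Windows of 250 bases before and 50 bases after the start were matched by symbol for 8 members, with 11 windows in all; Pmaip1 and Zmat3 had no window here. Of these 11 windows 4 had a match, 1 each of Trp53, Cdkn1a, Ccng1 and Bbc3, beside 1.38% of 32851 windows of the same length. The members were chosen as known p53 targets, so this contrast says nothing about the RNA data. Counted by gene, 5 of 24 other p53 targets had a match in any of their 33 windows. At most 1 mismatch was found in 0.067% of all windows, and 1 window each of Cdkn1a and Ccng1 was among these. A match describes the letters of the window and shows no binding. The windows of the 3 matched targets are printed with the element in capitals, since their transcripts are among those that rose below. Mdm2, Phlda3 and Sesn2 also rose with dTAG13 and had no match, while Trp53 had a match and was not called with dTAG13.
Cdkn1a, the 250 bases before the start at chr17:29090729-29090978, plus strand: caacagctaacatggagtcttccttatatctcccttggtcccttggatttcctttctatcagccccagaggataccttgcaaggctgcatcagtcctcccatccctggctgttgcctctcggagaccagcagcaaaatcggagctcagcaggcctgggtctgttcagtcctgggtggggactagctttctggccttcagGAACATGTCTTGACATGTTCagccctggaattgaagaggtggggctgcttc
Ccng1, the 250 bases before the start at chr11:40755287-40755536, minus strand: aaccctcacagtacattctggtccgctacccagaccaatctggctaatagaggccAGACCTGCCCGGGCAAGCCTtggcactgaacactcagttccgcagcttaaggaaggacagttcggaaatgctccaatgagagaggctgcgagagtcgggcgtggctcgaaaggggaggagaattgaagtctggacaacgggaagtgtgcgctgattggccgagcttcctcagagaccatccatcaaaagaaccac
Bbc3, the 250 bases before a start inside the annotated gene at chr7:16309333-16309582, plus strand: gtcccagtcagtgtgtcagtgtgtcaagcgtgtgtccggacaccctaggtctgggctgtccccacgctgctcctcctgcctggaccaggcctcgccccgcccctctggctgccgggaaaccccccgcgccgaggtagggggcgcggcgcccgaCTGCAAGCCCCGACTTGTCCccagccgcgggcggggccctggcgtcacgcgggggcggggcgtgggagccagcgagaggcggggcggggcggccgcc
Trp53, the element alone at chr11:69580284-69580303, plus strand: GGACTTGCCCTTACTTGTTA
The element began 51 bases before 1 annotated start of Cdkn1a, 195 before that of Ccng1, 97 before 1 start of Bbc3 and 75 before that of Trp53. It had 1 mismatch in Cdkn1a and Ccng1 and 3 mismatches in Bbc3 and Trp53. The window of another Cdkn1a start, at chr17:29093519-29093818, had no match, with 7 mismatches at best. The other windows of Bbc3 had none either, with 7 and 8 mismatches at best. In the windows of Mdm2, Bax, Phlda3 and Sesn2 these letters were not found; Mdm2 is known to be read from an internal p53-responsive promoter outside this window.

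With dTAG13, 8 of the 9 p53 targets rose on both days, while Bax was called at day 4 only and Trp53 RNA on neither day. At day 2, 8 of 10 members were called higher and 0 lower, where 13.7% of 16605 genes tested were called higher, 19.9% lower and 33.6% either way. At day 4, 9 of 10 members were called higher and 0 lower, where 15.8% were called higher, 26% lower and 41.8% either way. The 8 members higher at day 2 were among the 9 higher at day 4, where 10.6% of all genes were higher on both days. The median log2 fold change of the members was 1.11 at day 2 and 1.6 at day 4, beside medians of -0.09 and -0.13 over all genes tested. The increases of Mdm2 and Pmaip1 were the largest of the members on both days, and those of Sesn2 and Bbc3 were the smallest among the members called on both days. With median-ratio scaling of the same values, the all-gene medians were 0.001 and -0.018, and the share of calls that were higher moved at day 2 from 40.7% to 53.4% and by day 4 from 37.8% to 50.2%. The members' counts of 8 and 9 were the same under that scaling.

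**Figure D1:**
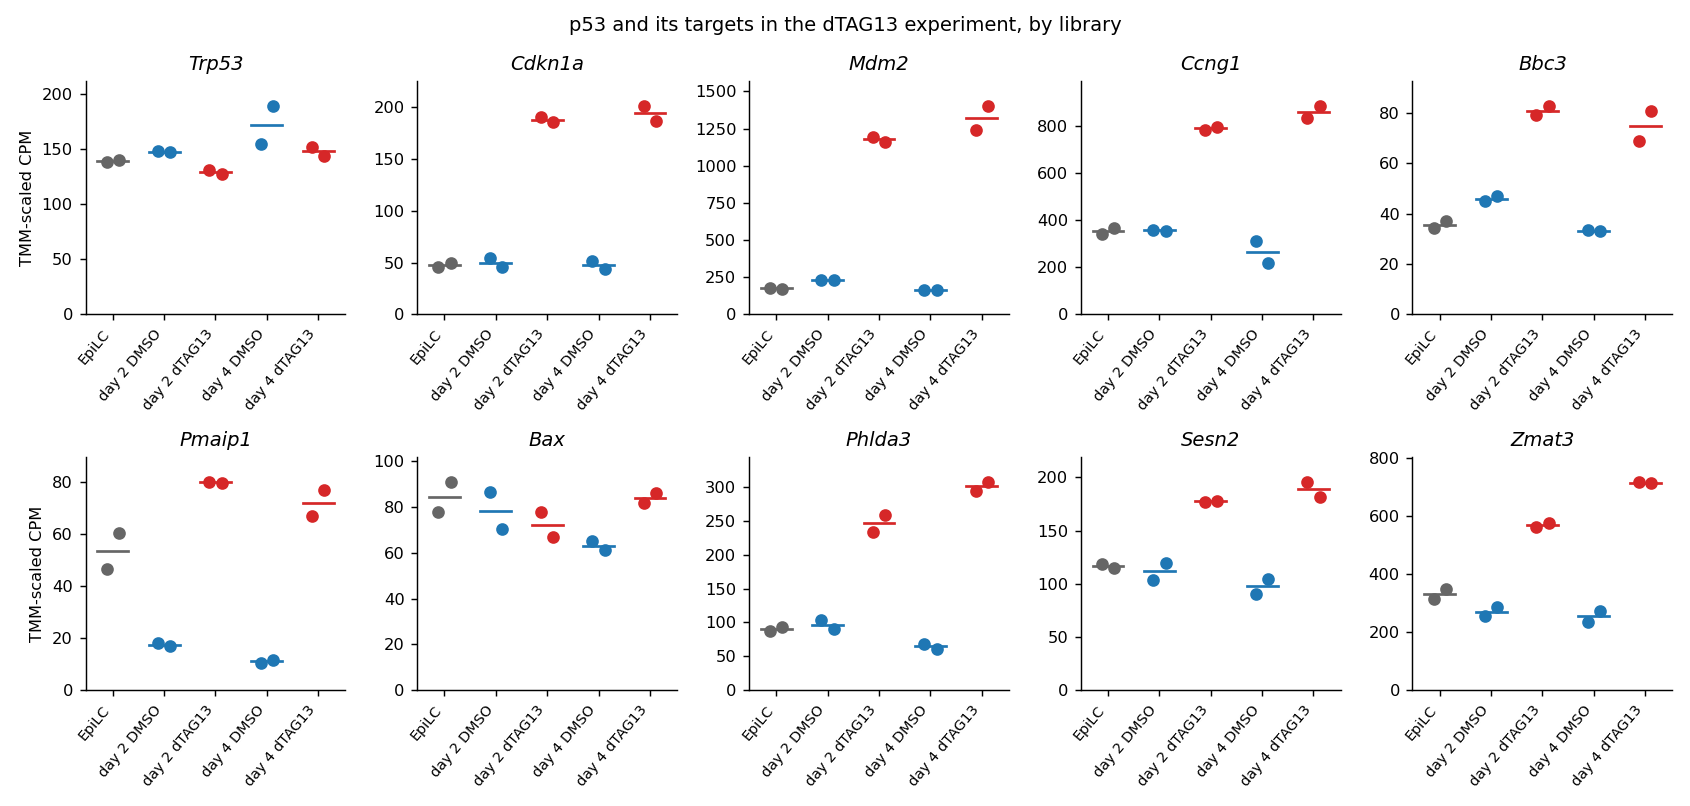
TMM-scaled CPM (vertical axes, from 0) of p53 and its 9 targets in each of the 10 libraries of the dTAG13 experiment; points are libraries and bars are group means of 2 libraries. The dTAG13 libraries of Mdm2 lie at 1158 to 1402 beside DMSO libraries at 163 to 235, and Trp53 has its dTAG13 libraries at 127 to 152 beside DMSO libraries at 147 to 189.

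Trp53 itself (chr11:69580359-69591873, mm10, plus strand) was at 138 and 140 in EpiLCs, at 148 and 147 in day 2 DMSO, at 131 and 127 in day 2 dTAG13, at 155 and 189 in day 4 DMSO and at 152 and 144 in day 4 dTAG13 libraries. The dTAG13 libraries lay below the DMSO libraries on both days, by a small margin at day 4.
The log2 fold change was -0.19 at day 2 (95% interval -0.41 to 0.03, adjusted p = 0.186) and -0.2 at day 4 (95% interval -0.43 to 0.02, adjusted p = 0.134). These intervals hold no increase above 0.03, and with median-ratio scaling the values were -0.09 (adjusted p = 0.562) and -0.08 (adjusted p = 0.605). Leaving out 1 library moved the day 4 value of Trp53 between -0.35 (adjusted p = 0.0137, without day 4 DMSO replicate 1) and -0.06 (adjusted p = 0.682, without day 4 DMSO replicate 2). The annotation holds a processed pseudogene, Trp53-ps, on chromosome 17, and how shared reads were counted is not given in the sources used here.

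Of the genes that feed back on p53, Mdm2 (chr10:117688875-117710758, mm10, minus strand), the ubiquitin ligase that destroys it, showed the largest increase of the members. Mdm2 was at 179 and 172 in EpiLCs and at 235 and 233 in day 2 DMSO, against 1196 and 1158 in day 2 dTAG13 libraries. At day 4 it was at 163 and 165 with DMSO and at 1244 and 1402 with dTAG13. The groups were far apart on both days: the ratio of means was 5.03 at day 2 (log2 fold change 2.33, SE 0.0972, adjusted p = 2.69e-13) and 8.06 at day 4 (3, SE 0.0972, adjusted p = 1.22e-15). At day 4 it ranked 97th among 16605 genes from the highest log2 fold change.

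Ccng1 (chr11:40748552-40755311, mm10, minus strand) encodes cyclin G1, which acts with a phosphatase on MDM2. Ccng1 was at 344 and 369 in EpiLCs, at 360 and 357 in day 2 DMSO and at 313 and 221 in day 4 DMSO libraries. With dTAG13 it was at 786 and 797 at day 2 and at 834 and 887 at day 4, above each of the other libraries of the experiment. The ratio of means was 2.21 at day 2 (log2 fold change 1.14, SE 0.123, adjusted p = 3.32e-07) and 3.22 at day 4 (1.7, SE 0.123, adjusted p = 3.9e-10). The 2 day 4 DMSO libraries differed by more than those of any other group in this gene, and over all genes their counts also differed most, with a chi-square of 13.57 per gene beside 1.81 to 7.48 in the other groups.

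Among targets that restrain growth, Cdkn1a (chr17:29090976-29100727, mm10, plus strand) encodes p21, the inhibitor of cyclin-dependent kinases that halts the cell cycle. Cdkn1a was at 45.9 and 49.6 in EpiLCs, at 54.6 and 45.5 in day 2 DMSO and at 51.7 and 44.2 in day 4 DMSO libraries. With dTAG13 it was at 190 and 186 at day 2 and at 201 and 187 at day 4. The control levels thus stayed within 44.2 to 54.6 over the course, and the treated libraries lay well above them on both days: the ratio of means was 3.76 (log2 fold change 1.9, SE 0.12, adjusted p = 1.79e-10) and 4.05 (2, SE 0.12, adjusted p = 1.85e-11). A gene annotated on the opposite strand, AC167363.2, covers 7.7% of the exonic bases of Cdkn1a, and whether counting used the strand is not given in the sources used here.

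Phlda3 (chr1:135766119-135769136, mm10, plus strand) encodes a small protein that keeps AKT from the membrane. Phlda3 was at 87.3 and 92.8 in EpiLCs, at 103 and 90.4 in day 2 DMSO and at 234 and 259 in day 2 dTAG13 libraries. At day 4 it was at 67.6 and 61.5 with DMSO and at 294 and 308 with dTAG13. The controls were lower and the treated libraries higher at day 4 than at day 2, and the ratio of means was 2.55 at day 2 (log2 fold change 1.34, SE 0.108, adjusted p = 5.67e-09) and 4.66 at day 4 (2.2, SE 0.108, adjusted p = 8.78e-13).

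Zmat3 (chr3:32334792-32366014, mm10, minus strand) encodes a zinc finger protein that binds RNA. Zmat3 was at 314 and 349 in EpiLCs, at 255 and 286 in day 2 DMSO and at 235 and 274 in day 4 DMSO libraries, against 563 and 576 with dTAG13 at day 2 and 718 and 712 at day 4. The dTAG13 libraries lay above EpiLC libraries as well as above DMSO libraries. The log2 fold change was 1.07 at day 2 (SE 0.105, adjusted p = 8.63e-08) and 1.49 at day 4 (SE 0.105, adjusted p = 2.66e-10). Sesn2 (chr4:132492032-132510501, mm10, minus strand) encodes sestrin 2, a leucine sensor that restrains mTORC1 and that is known as a target of the stress factor ATF4 as well as of p53. Sesn2 was at 119 and 115 in EpiLCs, at 104 and 120 in day 2 DMSO and at 90.6 and 105 in day 4 DMSO libraries, against 177 and 178 with dTAG13 at day 2 and 196 and 182 at day 4. The increase was smaller than those of the other targets that restrain growth but larger than the spread between libraries, with a ratio of 1.59 at day 2 (log2 fold change 0.67, SE 0.11, adjusted p = 7.22e-05) and 1.92 at day 4 (0.94, SE 0.11, adjusted p = 5.14e-07).

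Of the targets that promote cell death, Pmaip1 (chr18:66458533-66465565, mm10, plus strand) encodes NOXA, a BH3-only protein that opposes MCL1. Pmaip1 was at 46.8 and 60.3 in EpiLCs and fell to 18.2 and 16.8 in day 2 DMSO and 10.6 and 11.7 in day 4 DMSO libraries. With dTAG13 it was at 80.2 and 79.7 at day 2 and at 67 and 76.9 at day 4, above the EpiLC level on both days. The ratio of means to DMSO was 4.56 at day 2 (log2 fold change 2.13, SE 0.147, adjusted p = 6.48e-10) and 6.43 at day 4 (2.58, SE 0.147, adjusted p = 8.12e-12). Bbc3 (chr7:16308393-16318205, mm10, plus strand) encodes PUMA, a BH3-only protein that binds the pro-survival BCL2 proteins. Bbc3 was at 34.3 and 37 in EpiLCs, at 45 and 47 in day 2 DMSO and at 33.4 and 33.3 in day 4 DMSO libraries, against 79.1 and 82.8 with dTAG13 at day 2 and 68.9 and 80.9 at day 4. Treated libraries stood above control libraries on both days, by a ratio of 1.76 at day 2 (log2 fold change 0.8, SE 0.125, adjusted p = 3.72e-05) and 2.25 at day 4 (1.14, SE 0.125, adjusted p = 2.03e-07).

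Bax (chr7:45461697-45466898, mm10, minus strand), which encodes the protein that opens the outer mitochondrial membrane, stood apart from the other targets. Bax was at 78 and 91.1 in EpiLCs, at 86.4 and 70.4 in day 2 DMSO and at 77.7 and 67 in day 2 dTAG13 libraries. The day 2 groups overlapped, and the log2 fold change was -0.11 (95% interval -0.37 to 0.15, adjusted p = 0.537), between -0.26 and 0.03 when 1 library was left out. At day 4 Bax was at 65 and 61.4 with DMSO and at 81.7 and 86 with dTAG13, and the groups did not overlap. The day 4 log2 fold change was 0.4 (SE 0.127, adjusted p = 0.014), but the adjusted p was 0.0918 without day 4 dTAG13 replicate 2, 0.0526 without day 4 DMSO replicate 2, 0.0581 with no filter on low values and 0.0727 without the variance trend. The gene Gm45808 on the same strand shares 12.2% of the exonic bases of Bax, so reads of the 2 genes could be split or lost in counting.

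**Figure D2:**
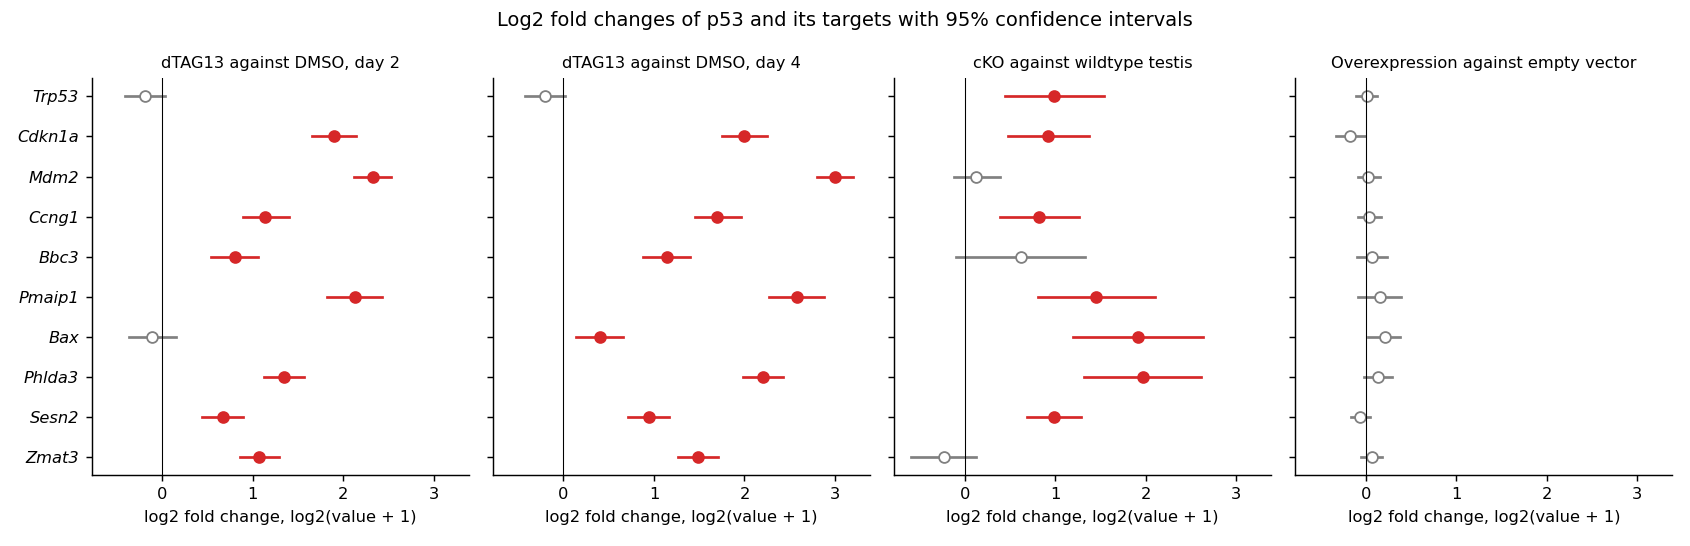
Log2 fold changes of p53 and its 9 targets on the log2(value + 1) scale (horizontal axes) with 95% confidence intervals in 4 comparisons; filled red points were called higher at an adjusted p under 0.05 and open points were not called. Filled points number 8 at day 2, 9 at day 4, 7 in testis and 0 in the overexpression comparison.

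An interaction term compared the dTAG13 response of day 4 with that of day 2. Mdm2 (difference of log2 fold changes 0.68, SE 0.138, adjusted p = 0.0131) and Phlda3 (0.86, SE 0.153, adjusted p = 0.0051) were called, with the larger effect at day 4. That is 2 of 10 members, where 0.771% of all genes tested were called in this direction, 0.482% in the other and 1.25% in either. The differences of Ccng1 (0.56, adjusted p = 0.135) and Bax (0.51, adjusted p = 0.205) were next in size and not called. Cdkn1a had a difference of 0.1 with a 95% interval of -0.25 to 0.45. In both called genes the controls moved as well as the treated cells: the mean of Mdm2 went from 234 to 164 with DMSO and from 1177 to 1323 with dTAG13, and that of Phlda3 from 96.9 to 64.5 and from 247 to 301. The calls rest on few libraries. Without either day 2 DMSO library, either day 2 dTAG13 library or day 4 dTAG13 replicate 2, the adjusted p of Mdm2 was between 0.0591 and 0.133. That of Phlda3 was 0.0584 without day 4 dTAG13 replicate 2 and 0.0667 without day 2 dTAG13 replicate 1. Without day 4 DMSO replicate 1 Ccng1 was called (0.81, adjusted p = 0.000823), and without day 4 DMSO replicate 2 Zmat3 was (0.53, adjusted p = 0.032). With no filter on low values, and without the variance trend, limma called 0 members, with 7 and 4 members higher at an unadjusted p under 0.05, while edgeR on recovered reads called 2.

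Other targets of p53, 33 genes in 4 lists, were counted beside the members. At day 2, 18 of the 32 that were tested were called higher and 6 lower (13.7% and 19.9% of all genes), and the median of their log2 fold changes was 0.79. At day 4, 22 were higher and 5 lower (15.8% and 26% of all genes), around a median of 1.11. Of 7 genes of cell cycle and growth, 5 rose and 2 fell at day 2, and 6 rose and 1 fell at day 4. Plk2, a polo-like kinase, was at 30.4 and 28 with DMSO and at 155 and 180 with dTAG13 at day 2 (log2 fold change 2.48, adjusted p = 2.73e-11), and its log2 fold change at day 4 was 3.5. Btg2, an antiproliferative gene, was at 50.2 and 46.1 against 207 and 204 at day 2 and at 41.1 and 32.8 against 282 and 263 at day 4. Plk3 rose by 1.17 at day 2, and Sfn, which encodes 14-3-3 sigma, rose by 1.95 at day 4. Sesn1, the paralogue of Sesn2, was named after its values were seen and fell on both days, with log2 fold changes of -0.5 and -0.53.

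Of 11 genes of cell death, 8 rose and 1 fell at day 2, and 10 rose and 1 fell at day 4. Perp, a membrane protein of desmosomes and apoptosis, was at 58.2 and 57.9 with DMSO against 396 and 413 with dTAG13 at day 2, and at 40 and 37.8 against 502 and 558 at day 4. These are log2 fold changes of 2.78 (adjusted p = 9.8e-14) and 3.73 (adjusted p = 4.99e-16). The death receptor gene Fas was at 0.377 and 0 against 5.75 and 3.08 at day 2, so its DMSO level there lay below the filter's mean of 1. Trp53inp1, which encodes a nuclear partner of p53, rose by 1.63 at day 2 and 2.4 at day 4. The gene that fell, named after its values were seen, was Bid, a BH3-only gene (-0.4 and -0.66). Genes of DNA repair and metabolism were divided: of 10 tested, 2 rose and 3 fell at day 2, and 3 rose and 3 fell at day 4. Ercc5, a nuclease gene of nucleotide excision repair, was at 47.2 and 40.6 against 148 and 143 at day 2 (log2 fold change 1.71, adjusted p = 1.49e-09). Gls2, a mitochondrial glutaminase gene, was at 24.3 and 25.6 against 10.9 and 10.2 at day 2, and its log2 fold change was -1.17 at day 2 and -1.41 at day 4. Polk, a gene of a translesion polymerase, rose by 0.97 and 1.62. Of the secreted targets, Thbs1 (thrombospondin 1) and Lif (a cytokine) rose on both days, with log2 fold changes of 2.54 and 1.22 at day 2 and of 3.9 and 2.05 at day 4. The p53 relative Trp73 was at 9.18 and 9.36 with DMSO against 43.5 and 41.2 with dTAG13 at day 2, and its log2 fold change went from 2.08 to 3.21 at day 4.

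**Figure D3:**
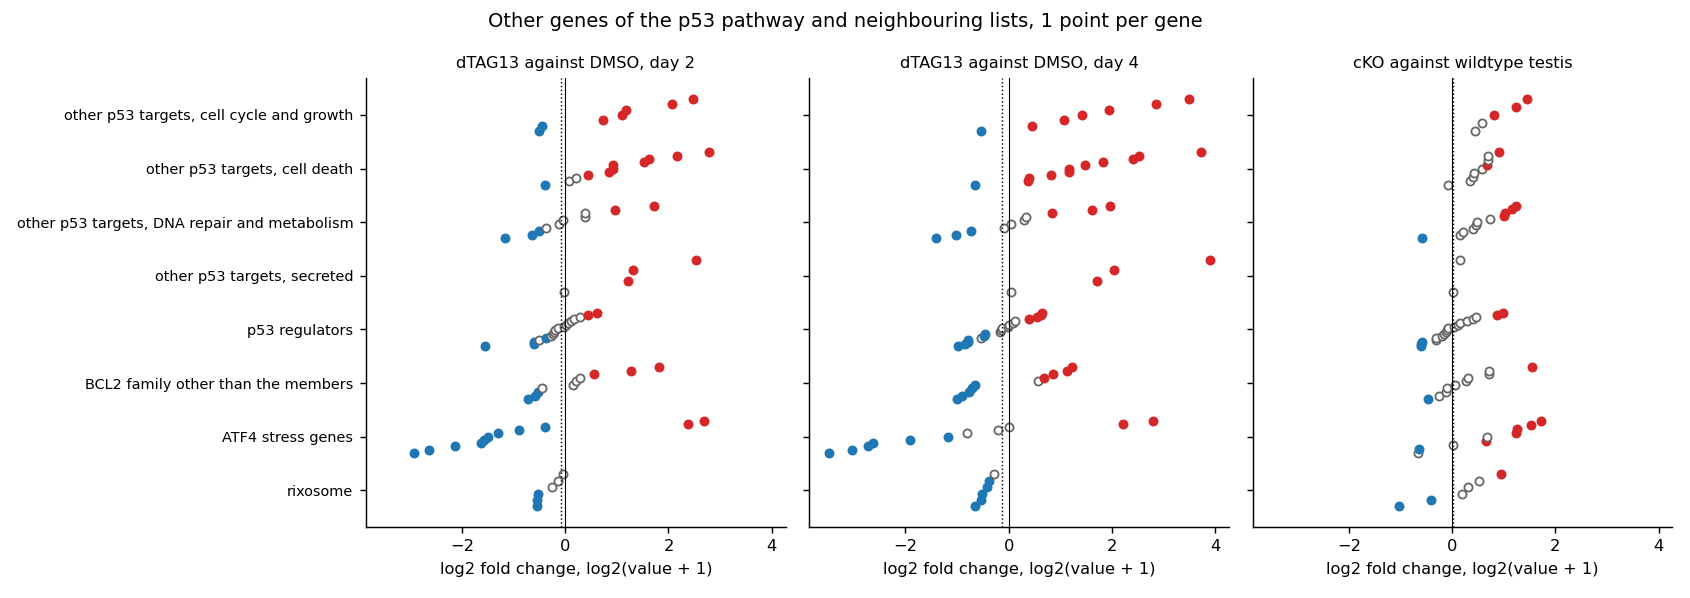
Log2 fold change on the log2(value + 1) scale (horizontal axes) of each tested gene of 8 lists of the p53 pathway and its neighbours in 3 comparisons; red points were called higher, blue lower and open points were not called, with the all-gene median as a dotted line. The 4 lists of other p53 targets hold 18 red and 6 blue points at day 2, 22 and 5 at day 4, and 9 and 1 in testis.

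Of 18 regulators of p53, 2 rose and 4 fell at day 2, and 4 rose and 6 fell at day 4. These counts, and those of the rixosome and BCL2 family genes, stand beside 13.7% of all genes called higher and 19.9% lower at day 2, and 15.8% and 26% at day 4. Mdm4, which encodes the inhibitory partner of MDM2, rose by 0.62 at day 2 (adjusted p = 8.65e-05), and the kinase gene Hipk2 was at 44.4 and 52.7 with DMSO against 16 and 15.4 with dTAG13 (log2 fold change -1.56, adjusted p = 1.07e-07). Chek1, a checkpoint kinase gene, fell by 0.61 at day 2 and by 0.79 at day 4, and Npm1, which encodes the nucleolar protein nucleophosmin, fell by 0.85 at day 4. Rpl5 and Rpl11 were named for their role on MDM2 and after their values were seen: both fell at day 4, by 0.46 and 0.79, and have many processed copies in the genome that can share reads. Of 6 rixosome genes, 0 rose and 3 fell at day 2, and 0 rose and 5 fell at day 4; Pelp1 and Senp3 had log2 fold changes of -0.55 and -0.54 at day 2. Of 10 further BCL2 family genes, 3 rose and 3 fell at day 2 and 4 rose and 5 fell at day 4. The pro-survival Bcl2l1 rose by 1.27 and 1.23 and the BH3-only Bcl2l11 by 1.13 at day 4, while the BH3-only Bad fell by 1.01 at day 4 and Bok by 0.73 at day 2. At day 2 the log2 fold change of Bcl2 was 1.81, from a low level.

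Since Sesn2 is also an ATF4 target, 11 ATF4 stress genes were read beside it. At day 2, 2 of them rose (Ddit3 and Atf3) and 9 fell, and at day 4, 2 rose and 6 fell, beside 19.9% and 26% of all genes called lower. Chac1 was at 26.2 and 31.2 with DMSO against 2.64 and 2.54 with dTAG13 at day 4, and Nupr1 at day 2 was at 13.7 and 10.7 against 1.09 and 0.401. Atf3 was at 2.39 and 3.66 against 23.5 and 25.6. The part of ATF4 in the change of Sesn2 was not tested. Markers of cell state also moved with dTAG13. Of 8 pluripotency markers 8 were called lower on both days, and their summed level was 2627 to 2762 with DMSO against 1407 to 1511 with dTAG13 at day 2, and 3379 to 3884 against 1670 to 1916 at day 4. Of 8 mesoderm and endoderm markers, 4 were tested and 2 were called higher on both days; their sums were 13.3 to 16.7 against 35.6 to 45.2 at day 2 and 19.2 to 21.3 against 41.6 to 44.5 at day 4, and 1 of the 8 was at 0 in day 2 DMSO and 1 in day 4 dTAG13 libraries. Of 7 germ cell precursor markers, 1 was called higher and 3 lower on both days, with sums of 239 to 256 against 211 to 221 at day 2. In these bulk samples fewer cells of a type and less RNA per cell cannot be told apart, and the part of these markers in the members' changes was not tested.

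In control cells members moved in both directions up to day 2, and those called from day 2 to day 4 fell. The control comparisons use the same DMSO libraries as the dTAG13 comparisons. From EpiLCs to day 2 DMSO cells, 2 of 10 members were called higher and 2 lower (11.5% and 14.7% of all genes, 26.2% either way): Mdm2 (0.41) and Bbc3 (0.36) rose, and Pmaip1 (-1.55, adjusted p = 5.85e-08) and Zmat3 (-0.29) fell. The calls of Bbc3 and Zmat3 were lost when any of the 4 libraries was left out, with adjusted p-values between 0.0538 and 0.315; Mdm2 and Pmaip1 were called without each in turn.
From day 2 to day 4 with DMSO, 5 members fell and 0 rose (3.08% of all genes were called lower, 2.44% higher and 5.52% either way): Mdm2 (-0.51), Phlda3 (-0.58), Pmaip1 (-0.6), Bbc3 (-0.45) and Ccng1 (-0.44), with adjusted p-values from 0.00178 to 0.0346. Only 1 to 3 of these calls were kept when 1 of the 4 libraries was left out. Without day 4 DMSO replicate 2 the value of Ccng1 was -0.19 (adjusted p = 0.312), without day 4 DMSO replicate 1 it was -0.69 (adjusted p = 5.47e-05), and also without day 4 DMSO replicate 1 Trp53 was called higher (0.36, adjusted p = 0.0446).

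With Tex10 overexpression, 0 of 10 members were called in either direction, where 4.54% of 15255 genes tested were called higher, 4.22% lower and 8.76% either way. By limma, 1 member was higher and 1 lower at an unadjusted p under 0.05, and edgeR on recovered reads also called 0. The members were Bax, with a log2 fold change of 0.21 (95% interval 0.03 to 0.38, adjusted p = 0.138), and Cdkn1a, with -0.17 (95% interval -0.33 to -0.01, adjusted p = 0.201). The widest interval among the members was that of Pmaip1, -0.08 to 0.39. Every member's interval lay between -0.33 and 0.39. The median of the members was 0.05, beside 0.01 over all genes tested. With 1 empty-vector line, a difference between lines and an effect of the construct cannot be told apart, and stages stood in for replicates.

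**Figure D4:**
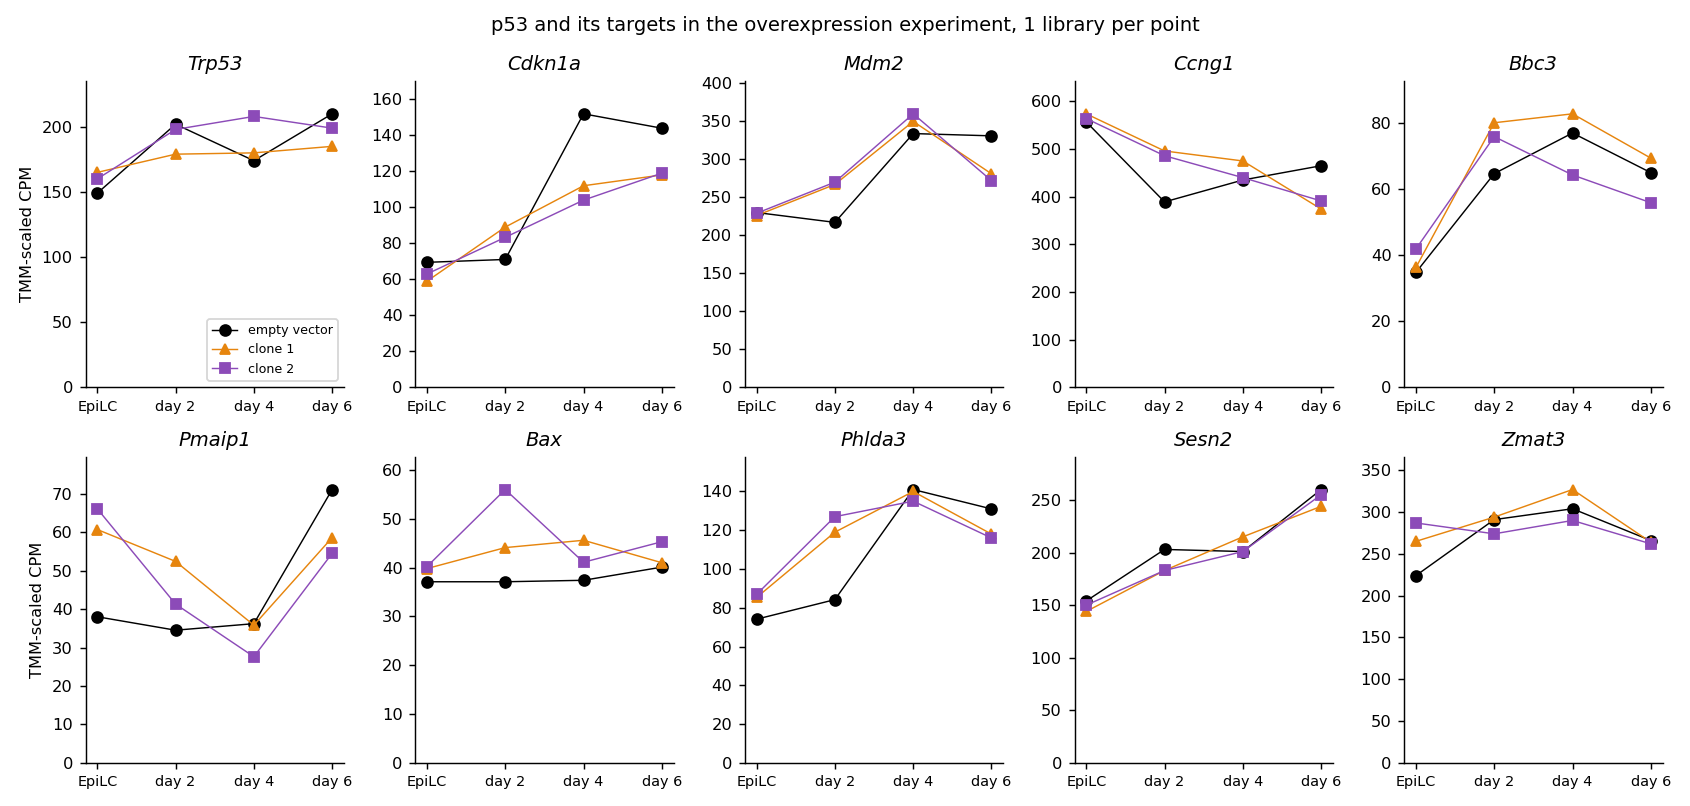
TMM-scaled CPM (vertical axes, from 0) of p53 and its 9 targets at 4 stages (horizontal axes) in 1 empty-vector line and 2 Tex10 overexpression clones, with 1 library per point. At day 2 both clones lie above the empty-vector line in 7 of 10 genes, and at day 6 below it in 8 of 10.

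The order of clones and vector line changed with the stage in several members, and the share of all genes in which it changed was not counted. Both clones lay above the empty-vector library in 7 of 10 members in EpiLCs, in 7 at day 2, in 4 at day 4 and in 1 at day 6, and below it in 3, 2, 3 and 8; over all genes the shares were 36.2% to 38.7% above and 35.5% to 37.2% below. Cdkn1a was at 69.4 in the empty-vector line against 58.9 and 62.9 in the clones in EpiLCs, at 71 against 89 and 83.3 at day 2, at 152 against 112 and 104 at day 4 and at 144 against 118 and 119 at day 6. The clones were thus higher at day 2 and lower at the other stages. Phlda3 was at 84.2 against 119 and 127 at day 2 and at 131 against 118 and 116 at day 6. Pmaip1 was at 38 against 60.7 and 66.1 in EpiLCs and at 71.1 against 58.6 and 54.5 at day 6. Mdm2 was at 217 against 267 and 270 at day 2 and at 331 against 281 and 272 at day 6. In Phlda3, Pmaip1 and Mdm2 the single empty-vector library was below both clones at the earlier of these stages and above both at the later one. The cause of this change of order was not tested. A stage holds 1 empty-vector library, so none of these differences within a stage was tested here. Without the day 2 libraries, Cdkn1a was called lower (-0.32, adjusted p = 0.0083), and without the day 4 libraries its value was -0.06 (adjusted p = 0.778).

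Along the course of the 3 lines together, more members were called higher than lower at each step, and most were not called after day 2. Counts called either way lay near the all-gene shares up to day 4. From day 4 to day 6 the balance turned when the empty-vector line was left out. From EpiLCs to day 2, 5 of 10 members were called higher and 1 lower (24.1% and 22.1% of all genes, 46.3% either way): Bbc3 rose by 0.95 (adjusted p = 3.72e-08), Phlda3 by 0.4, Cdkn1a and Sesn2 by 0.34 and Trp53 by 0.29, and Ccng1 fell by 0.32. From day 2 to day 4, 3 rose and 0 fell (11.1% of all genes higher, 11.9% lower and 23% either way): Cdkn1a by 0.58, Mdm2 by 0.47 and Phlda3 by 0.35. From day 4 to day 6, 2 rose and 0 fell (3.49% of all genes higher, 3.38% lower and 6.88% either way), Pmaip1 by 0.87 (adjusted p = 0.000468) and Sesn2 by 0.3. Mdm2 and Phlda3 thus rose from day 2 to day 4 in these lines and fell in the DMSO cells of the dTAG13 experiment. The tables were normalized separately and their libraries made with different kits, so the difference between experiments was not tested. Which lines were used decided some of these calls: without clone 1 or clone 2 Cdkn1a (adjusted p = 0.264 and 0.093) and Phlda3 (0.0579 and 0.0544) were not called from EpiLCs to day 2, Phlda3 was not called from day 2 to day 4 without the empty-vector line (0.16, adjusted p = 0.177) or without clone 1 (0.0715), and Sesn2 was not called from day 4 to day 6 without clone 1 (0.0916) or clone 2 (0.192). Without the empty-vector line, the value of Cdkn1a from day 2 to day 4 was 0.32 (adjusted p = 0.00599) and that of Ccng1 from EpiLCs to day 2 was -0.21 (adjusted p = 0.00282). Also without that line, Mdm2 (-0.36), Ccng1 (-0.26) and Zmat3 (-0.23) were called lower from day 4 to day 6 and Pmaip1 (-0.55) from day 2 to day 4. Of the other p53 targets, 5 of 31 tested were called higher and 2 lower with overexpression, where 4.54% of all genes were called higher and 4.22% lower, and their median was 0.02 beside 0.01 over all genes. Gadd45a, a growth arrest gene, was at 16.1 against 31.4 and 33.2 at day 2 and at 19.1 against 35.3 and 37.1 at day 6 (log2 fold change over stages 0.66, adjusted p = 0.0003). Bid (0.36) and Xpc (0.39) also rose, and of 11 ATF4 genes 6 rose and 0 fell, Trib3 by 0.59 and Atf4 by 0.54.

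In cKO testis, 7 of 10 members were called higher and 0 lower, where 16.1% of 20658 genes tested were called higher, 13.1% lower and 29.1% either way. The median log2 fold change of the members was 0.96, beside 0.01 over all genes tested. The members called were Trp53, Cdkn1a, Ccng1, Pmaip1, Bax, Phlda3 and Sesn2; 5 of these were also higher with dTAG13 on both days, where 2.66% of 13782 genes tested in both tables were higher in all 3 comparisons. Mdm2, the member with the largest response to dTAG13, was not called in testis. Levels of several members were low here, and 3 reads corresponded to between 0.381 and 0.514 units. Of the 7 called, Bax passed the filter on low values only through its cKO libraries. With no filter, 7 members were called as well.

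**Figure D5:**
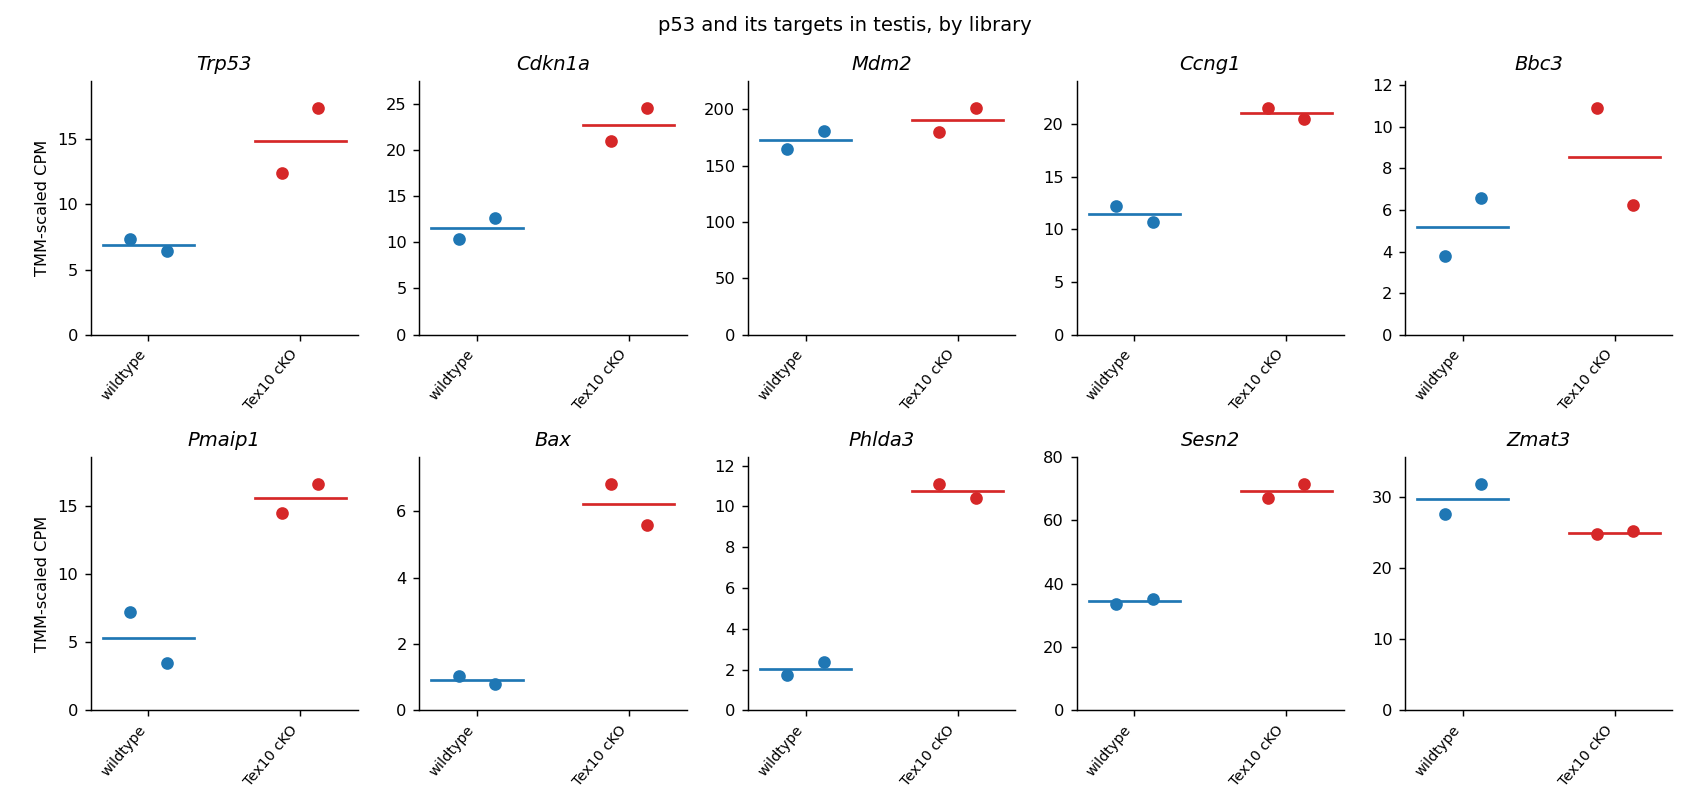
TMM-scaled CPM (vertical axes, from 0) of p53 and its 9 targets in 2 wildtype and 2 Tex10 cKO testis libraries; points are libraries and bars are group means. Phlda3 lies at 10.4 and 11.1 in cKO beside 1.71 and 2.35 in wildtype, Mdm2 and Bbc3 overlap, and both cKO libraries of Zmat3 lie below wildtype.

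Trp53 was at 7.36 and 6.44 in wildtype and at 12.4 and 17.4 in cKO testis, unlike in the dTAG13 experiment, where its RNA was not called. Its log2 fold change was 0.99 (SE 0.254, adjusted p = 0.01), but the adjusted p was 0.119 without cKO replicate 2 (log2 fold change 0.76) and 0.0504 without the variance trend. The comparison of this effect between the experiments was not tested. Mdm2 was at 165 and 181 in wildtype and at 180 and 201 in cKO, with overlapping groups (log2 fold change 0.13, 95% interval -0.12 to 0.39, adjusted p = 0.432). Ccng1 had a mean of 11.4 ± 1.05 (SD, n = 2) in wildtype and of 21 ± 0.703 (SD, n = 2) in cKO, with the groups apart (log2 fold change 0.82, SE 0.205, adjusted p = 0.00857; 0.059 without cKO replicate 1). Of the growth restraints, Cdkn1a was at 10.4 and 12.6 in wildtype and at 20.9 and 24.5 in cKO (log2 fold change 0.92, SE 0.208, adjusted p = 0.0049). Sesn2 was at 33.6 and 35.2 against 66.9 and 71.5 (0.99, SE 0.14, adjusted p = 0.000285). Phlda3 was at 1.71 and 2.35 against 11.1 and 10.4 (1.97, SE 0.3, adjusted p = 0.000468). All 3 genes kept the groups apart, Phlda3 with a ratio of means of 5.3. Zmat3 was at 27.6 and 31.9 against 24.8 and 25.3 (-0.23, 95% interval -0.59 to 0.13, adjusted p = 0.317). Of the death-promoting targets, Bax was at 1.03 and 0.785 in wildtype and at 6.83 and 5.59 in cKO, a ratio of 6.85 (log2 fold change 1.92, SE 0.333, adjusted p = 0.00103), where the wildtype values stand for 6 and 5 reads. The wildtype mean of Bax, 0.906, was under the filter's mean of 1, so Bax was tested only through its cKO libraries. Pmaip1 was at 7.19 and 3.45 against 14.5 and 16.6 (1.45, SE 0.3, adjusted p = 0.00298). Bbc3 was at 3.77 and 6.59 against 10.9 and 6.23, and its groups overlapped (0.62, 95% interval -0.09 to 1.33, adjusted p = 0.176). The value of Bbc3 was 0.26 without cKO replicate 1, 0.98 without cKO replicate 2, 0.29 without wildtype replicate 1 and 0.96 without wildtype replicate 2, and it was not called in any of these (adjusted p = 0.0558 to 0.726). By log2 fold change Phlda3 ranked 42nd from the highest of 20658 genes. No rank is given for Bax, since it passed the filter only through the group where it is high.

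Markers of the cells of the testis moved with these genes. Of 6 Sertoli cell markers 6 were called higher in cKO, with a summed level of 936 to 1091 against 310 to 361 in wildtype. Of 5 Leydig cell markers 5 were higher (590 to 971 against 241 to 347), and of 5 macrophage markers 3 of the 4 tested (71.3 to 91.5 against 35 to 41.1). Of 6 spermatid markers 5 were lower (12543 to 13043 against 17025 to 19422). Spermatocyte markers had sums of 419 to 474 against 439 to 457, with 2 of 6 higher, and spermatogonia markers 107 to 117 against 65.5 to 78.4, with 3 of 6 higher. In each of these lists 0 markers were at 0 in every library of a group. The defining markers Sox9 and Wt1 of Sertoli cells and the protamine gene Prm1 of spermatids were present in both groups, so both hold testis cells by these markers. The part of these shifts in the members' changes was not tested.

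Of the other p53 targets, 27 were tested in testis, and 9 were called higher and 1 lower (16.1% and 13.1% of all genes), with a median of 0.57. Btg2 was at 2.91 and 3.92 in wildtype and at 11 and 10.9 in cKO (log2 fold change 1.45, adjusted p = 0.00222). Fdxr, a mitochondrial reductase gene, was at 15.9 and 16.2 against 39.7 and 34.6 (1.16, adjusted p = 0.000415). Rrm2b, a ribonucleotide reductase gene, rose by 1.24, Gadd45a by 1.24, Xpc, a sensor gene of nucleotide excision repair, by 1.02, Ei24 by 0.91, Sesn1 by 0.81 and Trp53inp1 by 0.67. Polk, which rose with dTAG13, was the 1 gene lower in cKO (-0.59), and it was named after its value was seen. Plk2 and Perp, which rose with dTAG13, were not called in testis, with log2 fold changes of 0.57 (adjusted p = 0.0892) and 0.7 (adjusted p = 0.205). Of 18 regulators 2 rose and 3 fell, beside the all-gene shares of 16.1% and 13.1%. Cdkn2a, which encodes the MDM2 inhibitor ARF and the kinase inhibitor p16, was at 2.23 and 4.71 against 6.41 and 8.64 (0.98, adjusted p = 0.0439), Mybbp1a, a nucleolar gene, rose by 0.87, and Hipk2 fell by 0.61, as it fell with dTAG13. Of 10 BCL2 family genes 1 rose (Bok, 1.54) and 1 fell (Bcl2l1, -0.47). Of 9 ATF4 genes tested 5 rose and 1 fell, among them Pck2, which rose by 1.53. Nupr1, also counted as higher, was listed at 0 in both wildtype libraries and at 2.65 and 2.03 in cKO. It passed the filter on low values only through its cKO libraries. Of 6 rixosome genes 3 were called: Tex10 (-1.02), Pelp1 (-0.4) and Las1l (0.94). The value of Tex10 was -0.61 without wildtype replicate 1 (adjusted p = 0.0189) and -1.44 without wildtype replicate 2 (adjusted p = 3.35e-06), and its adjusted p was 0.0782 without the variance trend.

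The authors' deposited table gives fold changes and FDR values for several of these comparisons. In the authors' deposited table, 7 members were higher at an FDR under 0.05 with dTAG13 at day 2 and 8 at day 4, and 7 in testis, beside 8.11%, 10.5% and 17.2% of the genes with a mean of at least 1. With dTAG13, the members called here and not in the authors' deposited table were Sesn2 at day 2 (FDR 0.109) and Bax at day 4 (FDR 0.51). From EpiLCs to day 2 DMSO cells, the authors' deposited table has Pmaip1 lower (FDR 9.56e-12, with 6% of genes lower), while Mdm2 (FDR 0.417), Bbc3 (FDR 0.489) and Zmat3 (FDR 0.898), called here, are not under 0.05 there. With overexpression, the authors' deposited table lists 1 member higher in EpiLCs (0.865% of genes), 3 higher at day 2 (2.33%), 1 lower at day 4 (2.77%) and 1 lower at day 6 (1.05%). They are Pmaip1 in EpiLCs, Mdm2, Ccng1 and Phlda3 at day 2, Cdkn1a at day 4 and Ccng1 at day 6. Each rests on the 1 empty-vector library of its stage.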

How the data were processed

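The libraries were made with NuGEN Ovation kits (dTAG13 and testis) or a Tecan Universal Plus mRNA kit (overexpression), per the labels' protocols. Bowtie2 2.3.4.3, SAMtools 1.9, HTSeq 0.11.2, edgeR 3.26.8 and the build mm10 are named, per the submitters' processing notes, and strand use in counting is not given in the sources used here. The deposited values are a signal that the authors scaled by TMM, per the file names they gave. In each library the values were whole multiples of 1 step, and dividing by it gave whole reads for 100% of values at a tolerance of 0.1 read; day 4 DMSO replicate 2 had a step of 0.0996, too near 0.1 to be checked apart from rounding, and was treated like the others. The authors also deposited log2 fold changes and p-values with FDR, per the file headers.

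Each table was fitted with limma 3.58.1 (R 4.3.3) on log2(value + 1) with a variance trend, over all its libraries and over genes with a mean of at least 1. P-values were adjusted by Benjamini-Hochberg within each of 10 comparisons, at a threshold of 0.05. Stage was a covariate for overexpression and line for the steps between stages. The design also named edgeR in case the tables held raw counts; they held scaled values, so limma was kept and edgeR 4.0.16 on recovered reads was an alternative. Other alternatives were median-ratio scaling, a pseudocount of 0.1, no filter, no variance trend, the replicate block and leaving out libraries. The fit was tested on simulated reads for dTAG13 against DMSO at day 2 and for cKO against wildtype testis. The other comparisons and the promoter search were not tested in this way. The members and lists were chosen with earlier results of these data known. From the other lists, the text names per list and comparison up to 3 called genes with the largest change and no overlap between groups, and exceptions are marked or are given as members of a count. Intervals cover the spread between libraries, and the level of 3 reads covers counting error only. The check for duplicate libraries found chi-square values per gene of 1.81 to 13.57 between same-group libraries, so none was merged.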

Additional observations from a re-analysis of the deposited data

Results flagged for a closer look

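The effect of dTAG13 was larger at day 4 than at day 2 for Mdm2 (difference of log2 fold changes 0.68) and Phlda3 (0.86), by the interaction test in limma with Benjamini-Hochberg adjustment (adjusted p = 0.0131 and 0.0051). Both calls were lost without some single libraries, as given with the results.

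The difference between the overexpression clones and the empty-vector line changed sign between stages in 7 members, with both clones on 1 side at one stage and on the other side at another. The share of all genes that did so was not counted, so this is not read as particular to the members. No least size was set for a change of sign: at day 6 the Zmat3 clones differed from the line by only -0.01 and -0.02 in log2 units. At each stage both clones lay above the line in 36.2% to 38.7% of all genes and below it in 35.5% to 37.2%. Over the stages at which both clones lay on the same side of the empty-vector line, the span from the highest to the lowest mean difference, in log2 units, was 1.05 for Pmaip1 (EpiLC to day 6), 0.77 for Cdkn1a (day 2 to day 4), 0.7 for Phlda3, 0.62 for Ccng1 and 0.57 for Mdm2 (day 2 to day 6 in each), 0.32 for Zmat3 (EpiLC to day 6) and 0.28 for Trp53 (day 4 to day 6). These differences were not tested, since each stage has 1 empty-vector library that all of its differences share.

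From day 2 to day 4, Mdm2 and Phlda3 rose in each of the 3 lines of the overexpression experiment and fell in the DMSO cells. With all 3 lines, the difference between the experiments was 0.98 for Mdm2 and 0.93 for Phlda3 in log2 units, and it was not tested. Without the empty-vector line, the rise of Phlda3 in the lines was 0.16 in place of 0.35 and was not called (limma, adjusted p = 0.177). The 2 tables were scaled separately, and kit and experiment cannot be told apart.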

How the results depend on the processing

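No member value changed its direction while called. The members' calls in the dTAG13 comparisons of day 2 and day 4, with overexpression and in testis changed in 0 of 100, 5 of 100, 1 of 110 and 3 of 100 values over all alternatives; the steps between stages and the difference between days depended more on the setting. The causes of these changes were not tested.

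Leaving out 1 library, line or stage at a time, genes called ranged from 3603 to 4208 (day 2), 5370 to 6374 (day 4), 44 to 366 (difference between days), 413 to 1392 (overexpression, 673 without day 4), 3148 to 6085 (testis), 2496 to 3098 (EpiLC to day 2 DMSO), 425 to 1104 (day 2 to day 4 DMSO), and 5135 to 6703, 1564 to 4080 and 255 to 1427 for the 3 steps of the overexpression lines. Members called higher ranged from 8 to 9 at day 4, 0 to 3 for the difference between days, 6 to 7 in testis, 1 to 1 and 0 to 1 for the DMSO steps, and 3 to 7, 2 to 3 and 1 to 2 for the line steps. Members called lower ranged from 0 to 1 at day 4 and with overexpression, 1 to 1 and 1 to 3 for the DMSO steps, and 1 to 2, 0 to 1 and 0 to 3 for the line steps.

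With no filter on low values, genes called fell from 208 to 16 (difference between days), 1337 to 642 (overexpression), 916 to 341 (day 2 to day 4 DMSO) and 1049 to 476 (day 4 to day 6 lines). Without the variance trend they fell to 0 for the difference between days (1898 at an unadjusted p under 0.05 by limma, 248 called by edgeR), 431 (overexpression), 2135 of 6016 (testis), 445 (day 2 to day 4 DMSO), 2238 of 3509 (day 2 to day 4 lines) and 276 (day 4 to day 6 lines). In both settings members called higher went from 2 to 0 for the difference between days, and for EpiLC to day 2 DMSO from 2 to 1 higher and 2 to 1 lower (also 1 lower by edgeR). From day 2 to day 4 DMSO, members lower went from 5 to 2 with no filter and to 0 without the trend (5 at an unadjusted p under 0.05 by limma, 5 called by edgeR). Without the trend the lines had 2 in place of 5 higher and 0 in place of 1 lower from EpiLC to day 2 (2 lower by edgeR), and 0 in place of 2 higher from day 4 to day 6 (2 at an unadjusted p under 0.05, 2 called by edgeR).

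Nothing in the labels ties same-numbered libraries to each other, and with 2 pairs in a comparison the numbers were not taken as pairs: the pairing correlation was -0.025 at day 2, -0.069 at day 4, 0.116 in testis, and 0.118 and 0.093 for the DMSO steps. With the replicate block, genes called were 5507, 6894, 201 (difference between days) and 7185 (testis), and 4247 and 902 for the DMSO steps; members called were 8, 9, 2 and 7. With no replicate block (no line covariate), the line steps gave 6321, 2552 and 498 genes. Depth limits values of a few reads, such as Bax in wildtype testis.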
